A study of Arabidopsis thaliana with 4 samples.

Results

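The sites described here are 637 places around the centromeres of Arabidopsis thaliana. In each, both sets of probes against the long noncoding RNA APOLO had a called peak and control probes had none. They are peaks of the first ODD library (ODD 1) that overlapped a peak of the EVEN library by at least 1 bp, overlapped no peak of the LACZ library, and had their summit within 3 Mb of the stretch of each chromosome poorest in protein-coding genes. They are called pericentromeric sites below, and the gene-poor stretch is called the centre. The nuclear ODD 1 list held 16126 peaks, of which 2786 (17.3%) had an EVEN peak and no LACZ peak. Of these, 2089 lay outside the 3 Mb windows, and 60 more lay in a nuclear copy of mitochondrial DNA on chromosome 2 that was left out. The sites were selected on the ODD 1, EVEN 1 and LACZ 1 lists, so their presence in those lists is a description and no finding. The second ODD library (ODD 2) took no part in the selection.

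All 4 libraries came from Col-0 plants that carried the complete APOLO region driven by 35S, a strong promoter of viral origin that is active in most plant tissues, so APOLO was overexpressed in every group. The plants grew in long days on half-strength MS medium, and their age and the tissue taken are not stated in the labels. ODD (2 libraries) and EVEN (1 library) used separate probe pools against APOLO, and LACZ (1 library) used control probes. EVEN and LACZ thus had no replicate, and nothing in the labels says whether ODD 1 and ODD 2 came from separate plants.

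Pericentromeres flank the centromeres of every chromosome. In Arabidopsis they are poor in genes and rich in transposons, their remnants and satellite repeats, and they are packed as heterochromatin marked by DNA methylation and by methylation of lysine 9 of histone H3. APOLO is transcribed next to PID, a gene for a kinase that directs auxin transport, and is known to act on chromatin in auxin-responsive roots. In ChIRP, biotinylated oligonucleotides that pair with an RNA pull down crosslinked chromatin, and the DNA found with it is sequenced. A place found with separate probe pools depends less on any single oligonucleotide, while a place found with control probes as well is counted as background. Repeated DNA is a known difficulty of such assays, because short reads of near-identical copies cannot always be assigned to 1 position.

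The windows held 3678 of the 16126 nuclear peaks of ODD 1, 4620 of 20470 in EVEN 1, 12768 of 58146 in ODD 2 and 3376 of 12546 in LACZ 1. Read totals were not used here, so depth is known only through the authors' local background, whose lowest value in each list was 1.11 fragments in ODD 1, 2.81 in EVEN 1, 6.55 in ODD 2 and 6.23 in LACZ 1. Folds given below are the authors' enrichments of the summit pileup over that local background in 1 library. They rank peaks within a list and are not compared between lists. ODD 1 peaks could be as short as 47 bp, while LACZ peaks were at least 200 bp wide, and wide peaks overlap others more easily.

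The share of ODD 1 peaks that met the rule stayed between 15.1% and 18.7% over the whole range of distances from the centre, while the overlaps it is made of did not. In the innermost 0.5 Mb, 46.0% of ODD 1 peaks overlapped an EVEN peak (95% exact interval 41.7 to 50.3%, 251 of 546), and this share was 23.9% at 2.5 to 3 Mb and 18.9% beyond 10 Mb. The share that overlapped a LACZ peak was 34.6% in the innermost 0.5 Mb, 12.6% at 2.5 to 3 Mb and 8.58% beyond 10 Mb. Near the centre, ODD 1 thus shared more of its peaks with the other APOLO probe set and also more with the control. Of the ODD 1 peaks with an EVEN peak, 42.5% also had a LACZ peak in the windows (470 of 1107), against 19.6% outside them (508 of 2597). What remained after the LACZ peaks were taken away was 17.3% of ODD 1 peaks in the windows and 17.0% outside. The intervals cover counting error in these lists only.

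**Figure D1:**
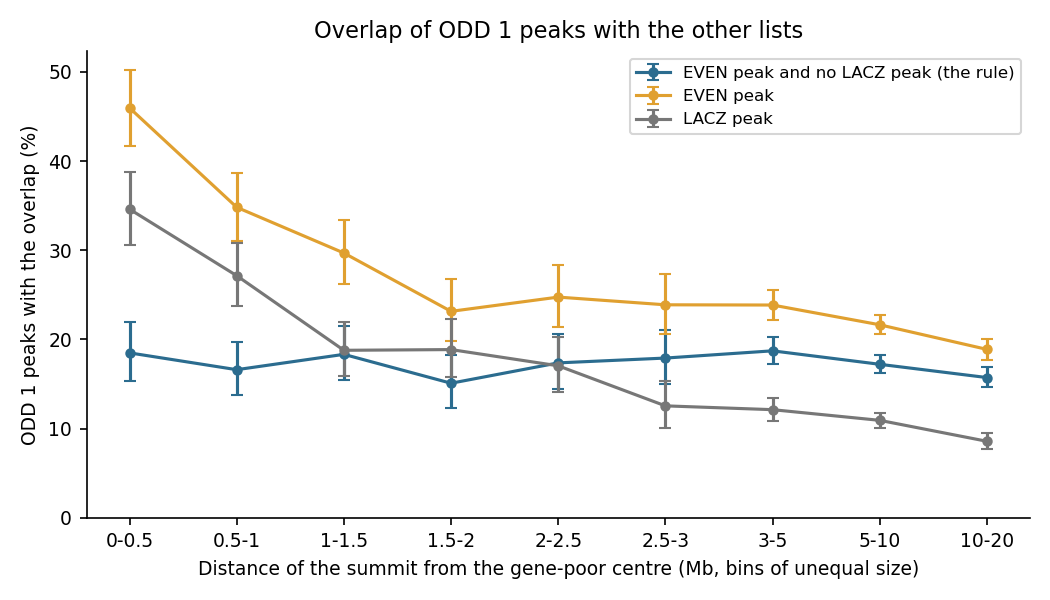
Share of ODD 1 peaks (percent, vertical axis) that overlapped an EVEN peak and no LACZ peak, an EVEN peak, or a LACZ peak, by distance of the summit from the centre (Mb, bins of unequal size), with 95% exact binomial intervals as bars. The share that met the rule stays between 15.1% and 18.7%, while the overlaps with EVEN and with LACZ are highest in the innermost bin, at 46.0% and 34.6%.

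Most of the sites were clear of the limits of the rule, and some were close to them. A pericentromeric site shared a median of 72 bp with its EVEN peak, and 12 shared under 10 bp. The nearest LACZ peak lay at a median of 1986 bp, but 127 sites had a LACZ peak within 500 bp and 5 had one within 10 bp. In the other direction, 6 of the 470 windowed ODD 1 peaks dropped for a LACZ peak overlapped it by under 10 bp. At the outer limit, the site farthest inside the window of chromosome 1 lay in GTL1, a trihelix transcription factor gene known for its role in trichome and root hair growth (chr1:12052594-12052741, 5.12-fold in ODD 1, 5.67-fold in EVEN 1 and 7.45-fold in ODD 2). On chromosome 5 it lay in the RNA gene AT5G00470 (chr5:8958495-8958588, 3.47-fold in ODD 1, 6.03-fold in EVEN 1 and 3.81-fold in ODD 2). The first site left out by distance on chromosome 4 lay within 1 kb of AT4G11800 (14.4-fold in ODD 1, 5.25-fold in EVEN 1 and 8.71-fold in ODD 2), and that on chromosome 5 lay in CAM1, a calmodulin gene (7.09-fold, 3.41-fold and 9.67-fold in the same lists). Over the 5 chromosomes the outermost sites inside had ODD 1 folds of 3.47 to 8.28, and the nearest outside had 3.69 to 14.4.

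The sites were spread over all 5 chromosomes, with 111 on chromosome 1, 111 on chromosome 2, 135 on chromosome 3, 132 on chromosome 4 and 148 on chromosome 5. They lay on both sides of the centres, 308 below and 329 above, and 205 lay within 1 Mb of a centre. Chromosomes 4 and 5 had 49 and 61 of those inner sites, while chromosome 1 had 25. ODD 1 peaks were uneven as well. In the 0.5 Mb below and above the centre there were 89 and 46 on chromosome 4, 104 and 69 on chromosome 5, and 3 and 49 on chromosome 1. Over the whole windows, the sites were 15.9% of ODD 1 peaks on chromosome 1, 15.5% on chromosome 2, 18.0% on chromosome 3, 17.2% on chromosome 4 and 19.9% on chromosome 5. Together the sites covered 92735 bp, and the median gap from a site to the next was 28080 bp. The chromosomes were also divided into bins of 500 kb, counted from their start, and the bin richest in sites was compared between them. On chromosome 5 it included the centre, from 11.5 to 12 Mb, with 33 sites among 116 ODD 1 peaks. Of the 33, 23 were farther than 1 kb from any annotated gene. On chromosome 4 it ended just short of the centre, from 3.5 to 4 Mb, with 22 sites among 79 ODD 1 peaks. Of these sites, 14 were farther than 1 kb from a gene. On chromosome 3 it lay more than 1 Mb above the centre, from 14 to 14.5 Mb, with 23 sites among 86 ODD 1 peaks. Of these sites, 9 were farther than 1 kb from a gene and 2 were in protein-coding genes. On chromosomes 1 and 2 it lay farther out. Chromosome 1 had 16 sites (11 in protein-coding genes) among 61 ODD 1 peaks from 17 to 17.5 Mb. Chromosome 2 had 17 sites (12 in protein-coding genes) among 72 ODD 1 peaks from 7 to 7.5 Mb. The median ODD 2 fold in these bins was 7.10 on chromosome 1, 7.50 on chromosome 2, 5.49 on chromosome 3, 4.23 on chromosome 4 and 4.11 on chromosome 5. The 3 bins with few sites in protein-coding genes thus had the lower ODD 2 folds, 1 of them away from the centre. Their sites were also narrower, with median widths of 71, 60.5 and 59 bp on chromosomes 3, 4 and 5, against 126.5 and 157 bp on chromosomes 1 and 2. Each of the 3 bins held 6 sites with a local background over 5 fragments, and the bins of chromosomes 1 and 2 held none. The parts of gene context, width and background were not tested.

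**Figure D2:**
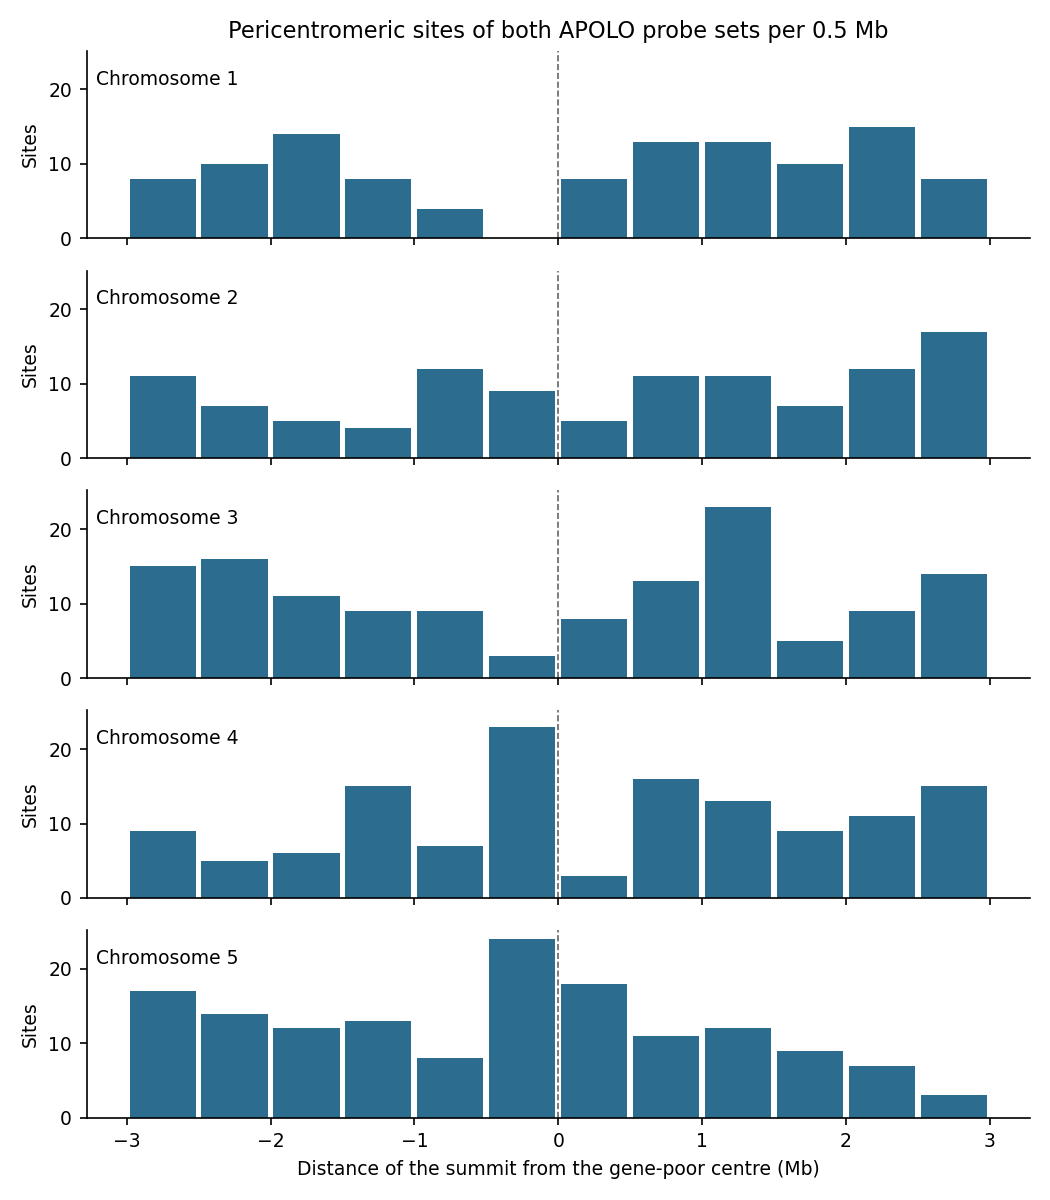
Number of pericentromeric sites (vertical axis) in each 0.5 Mb of signed distance from the centre (Mb, horizontal axis), 1 panel per chromosome, with the centre as a dashed line. Chromosomes 4 and 5 have their tallest bars next to the centre, whereas chromosome 3 has its tallest bar, of 23 sites, more than 1 Mb above it. ODD 1 peaks, which are not drawn, numbered 89, 104 and 86 in the bins of those tallest bars on chromosomes 4, 5 and 3.

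The second ODD library had a peak over most of the sites, though over a smaller share of them than of the sites of both probe sets outside the windows. Of the 637 pericentromeric sites, 604 (94.8%, interval 92.8 to 96.4%) overlapped an ODD 2 peak. Of the sites of both probe sets outside the windows, 2049 of 2089 (98.1%) did, and so did 2086 of 2262 (92.2%) pericentromeric ODD 1 peaks that touched no EVEN and no LACZ peak, called unshared peaks here. The background is high, since ODD 2 had a peak over 94.8% of all nuclear ODD 1 peaks and over 93.6% of those in the windows. The pericentromeric sites were 3.27 percentage points below the sites outside (odds ratio 0.357, adjusted p = 6.38e-05 by Fisher's exact test, two-sided) and 2.60 points above the unshared peaks (odds ratio 1.54, adjusted p = 0.0241 by the same exact test). Peaks are not replicates, so these p-values, adjusted over 2 tests, describe the libraries at hand. Fisher's test also takes every site as separate, whereas 115 sites had the next within 5000 bp and the 604 shared 585 distinct ODD 2 peaks. The p-values may thus be too small.

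Recovery in ODD 2 depended on the width of the ODD 1 peak in every group, and the groups differed in width. The pericentromeric sites had a median width of 117 bp, against 141 bp for sites outside and 91 bp for the unshared peaks. Among peaks of at most 60 bp, 80.5% of the pericentromeric sites (103 of 128, interval 72.5 to 86.9%) had an ODD 2 peak, against 92.0% of the sites outside (230 of 250) and 80.6% of the unshared peaks (495 of 614). Among peaks of 61 to 100 bp the shares were 94.8% of the pericentromeric sites, 95.9% of the sites outside and 92.6% of the unshared peaks. The distance from the sites outside was thus widest among the narrowest peaks, and at that width the pericentromeric sites and the unshared peaks had nearly the same share. Above 100 bp nearly every peak of each group had an ODD 2 peak (212 of 212 pericentromeric sites of 101 to 200 bp, 839 of 841 sites outside and 783 of 792 unshared peaks), which leaves little room for a difference. A comparison of peaks of at least 100 bp, chosen after seeing the data, therefore could show little (100% of pericentromeric sites, against 99.9% of sites outside and 99.0% of unshared peaks). With −log10 q of at least 5 in every list the second difference turned round, at 93.5% of pericentromeric sites against 97.0% of unshared peaks.

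Recovery, width and the ODD 2 fold were all lowest next to the centre, while the EVEN fold was highest there. An ODD 2 peak lay over 87.1% of sites within 0.5 Mb of the centre (88 of 101, interval 79.0 to 93.0%), over 93.3% at 0.5 to 1 Mb, and over 98.3% at 2.5 to 3 Mb (115 of 117). All ODD 1 peaks had a similar gradient, with 89.0% (486 of 546), 92.5% and 95.9% in the same bins. The median ODD 1 width was 62 bp within 0.5 Mb of the centre and 150 bp at 2.5 to 3 Mb, and the median ODD 2 fold was 4.49 and 8.15 in the same bins. The ODD 1 fold did not move with them, with medians of 5.55 within 0.5 Mb and 5.67 at 2.5 to 3 Mb. The EVEN fold went the other way, with medians of 4.46 and 3.81 in the same bins and 3.68 for the sites outside. The ODD 1 and EVEN lists both took part in the selection, though no fold threshold did. Within a width class the inner sites still had the lower ODD 2 folds: among sites of 101 to 200 bp the median was 6.50 within 1 Mb of the centre and 7.88 beyond, and among sites of at most 60 bp it was 3.90 and 4.90. Of all pericentromeric sites, 226 (35.5%) had an ODD 2 peak in the first 10% of that list by fold, against 906 (43.4%) of the sites outside, 34.1% of all nuclear ODD 1 peaks and 1104 of the 3678 in the windows. These gradients are descriptions and were given no test.

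**Figure D3:**
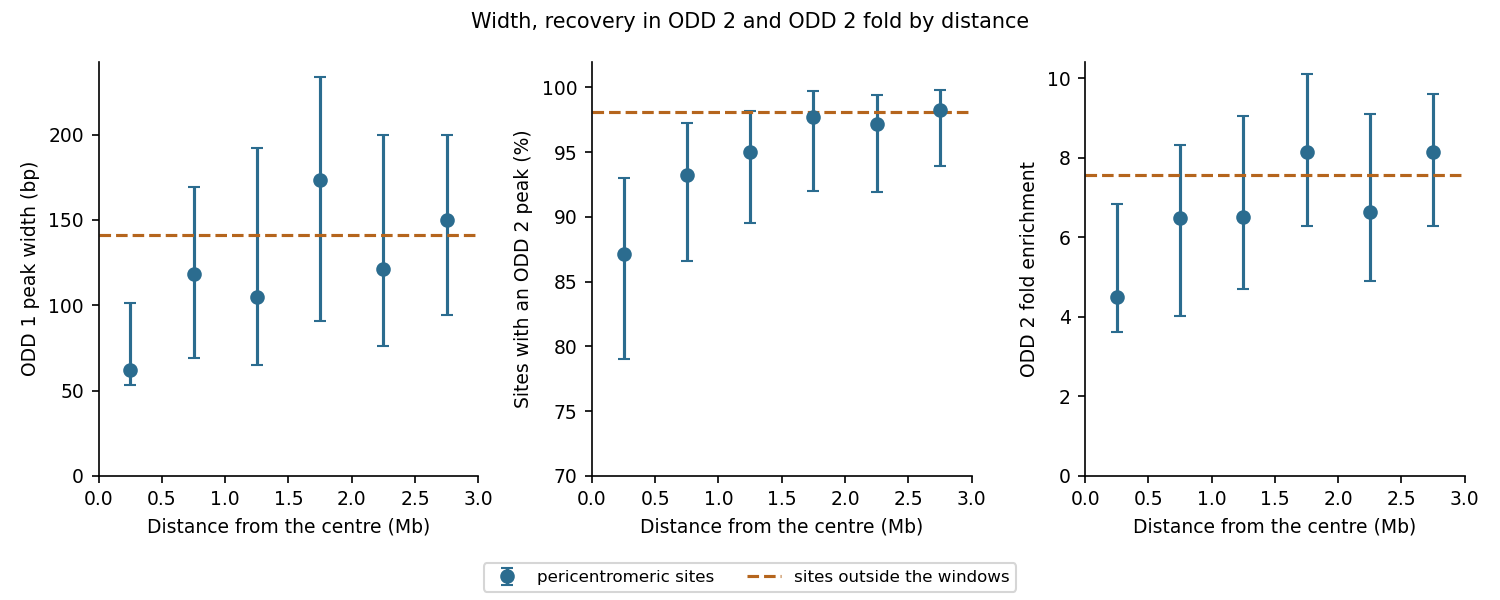
Median ODD 1 peak width (bp) with quartiles, share of sites with an ODD 2 peak (percent, axis from 70%) with 95% exact intervals, and median ODD 2 fold enrichment with quartiles, by distance of the pericentromeric sites from the centre (Mb), with the sites outside the windows as dashed lines. The innermost bin is lowest in all 3 panels, at 62 bp, 87.1% and 4.49-fold.

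The 33 sites without an ODD 2 peak were all at most 84 bp wide, with a median of 50 bp, and 20 of them lay within 1 Mb of a centre. Of the 33, 3 were in protein-coding genes and 15 were farther than 1 kb from any gene. Of all 637 sites, 205 lay within 1 Mb of a centre, 228 were in protein-coding genes and 120 were farther than 1 kb from any gene. Sites farther from genes were narrow, with a median of 61.5 bp, and the part of width in these counts was not tested. The best-ranked by ODD 1 and EVEN fold lay in the pseudogene AT4G06626 (chr4:3747724-3747784, 7.09-fold in ODD 1 and 4.99-fold in EVEN 1). The next lay nearest to the pseudogene AT4G06656, more than 1 kb away (chr4:3840787-3840843, 6.71-fold in ODD 1 and 8.57-fold in EVEN 1). Their folds in ODD 1 and EVEN were thus within the range of sites that ODD 2 did recover. The site nearest to the centre of chromosome 3, in the pseudogene AT3G32164 (chr3:13151220-13151297), had 2.85-fold in ODD 1 and 3.30-fold in EVEN 1 and no ODD 2 peak. NRPB3, which encodes a subunit of RNA polymerase II, held another (47 bp, 4.26-fold in ODD 1 and 3.68-fold in EVEN 1), and was named after its values were seen.

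Sites of both probe sets sat mostly in protein-coding genes outside the windows, and far less so inside them. The windows were placed around the stretches poorest in such genes, so a lower share inside them was set in part by the rule. The share of bases in such genes outside the windows was not computed. Of the pericentromeric sites, 35.8% (228 of 637, interval 32.1 to 39.7%) had their summit in a protein-coding gene, against 87.8% of sites outside the windows (1835 of 2089). A further 24.6% lay in other genes, 20.7% within 1 kb of a gene and 18.8% farther away. In the same windows, 35.7% of the unshared ODD 1 peaks and 32.7% of LACZ 1 peaks were in protein-coding genes. The share was lower, at 26.8% (interval 23.7 to 30.1%), for the windowed ODD 1 peaks with a LACZ peak. Such genes took 21.8% of the window's bases. Other genes held 24.6% of the pericentromeric sites, 27.2% of the unshared ODD 1 peaks, 29.7% of the windowed ODD 1 peaks with a LACZ peak and 38.7% of the LACZ 1 peaks. The share farther than 1 kb from any gene was 18.8% of the pericentromeric sites (interval 15.9 to 22.1%), 13.6% of the unshared peaks, 195 of the 779 ODD 1 peaks with a LACZ peak (interval 22.0 to 28.2%) and 13.0% of the LACZ 1 peaks. In this last share the pericentromeric sites stood between the unshared ODD 1 peaks and those with a LACZ peak, while in other genes they were below both. These shares were given no test.

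**Figure D4:**
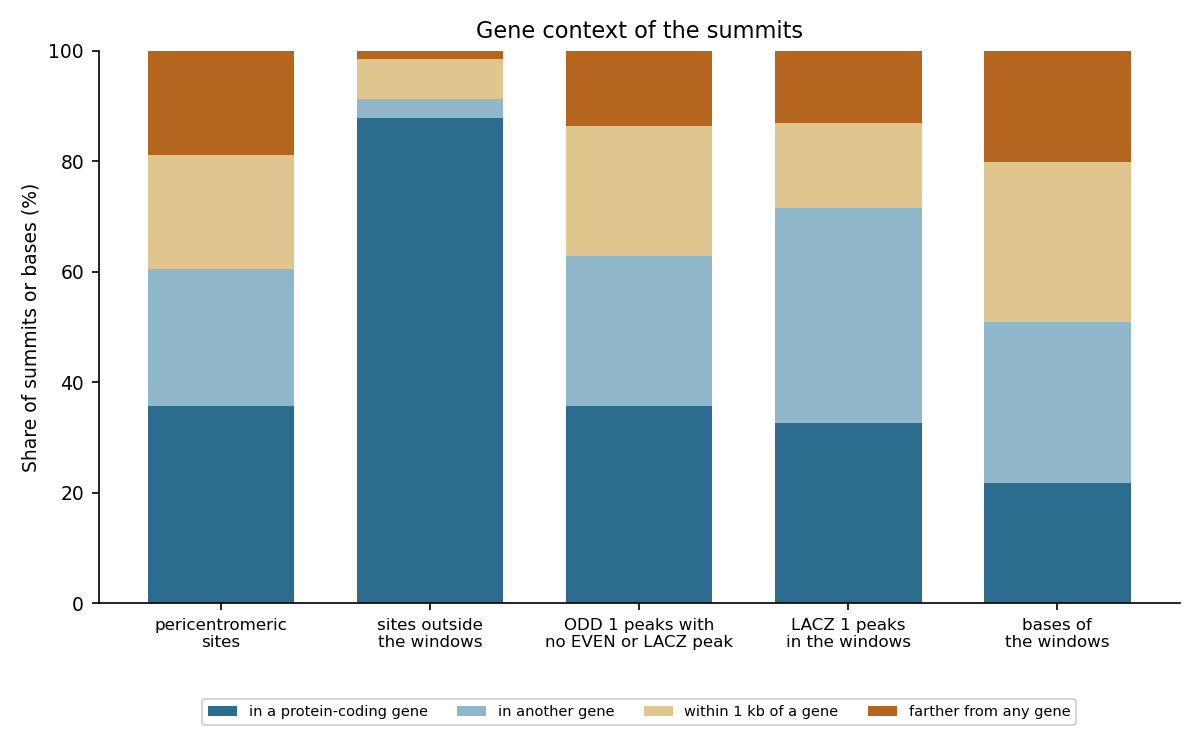
Share of summits (percent) in a protein-coding gene, in another gene, within 1 kb of a gene or farther away, for the pericentromeric sites, the sites outside the windows, the unshared pericentromeric ODD 1 peaks and the pericentromeric LACZ 1 peaks, with the share of bases of the windows in the last bar. The pericentromeric sites stand at 35.8% in protein-coding genes, against 87.8% for the sites outside.

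Gene context changed within the windows, broadly along with gene density. In the innermost 0.5 Mb, 7 of 101 sites (6.93%) were in a protein-coding gene, where such genes took 4.86% of bases. At 0.5 to 1 Mb the share was 12.5% of sites against 4.63% of bases, and at 1 to 1.5 Mb 24.0% against 17.1%. At 1.5 to 2 Mb 44 of 88 sites were in such genes, against 24.4% of bases. The share of sites was 63.2% at 2 to 2.5 Mb (interval 53.3 to 72.4%), against 31.3% of bases. At 2.5 to 3 Mb it was 58.1% (68 of 117, interval 48.6 to 67.2%), where such genes took 48.3%. The intervals of these outer bins overlap. Farther than 1 kb from any gene lay 50.5% of sites (51 of 101) in the innermost 0.5 Mb, against 28.6% of the bases there. Within 1 Mb the share was 37.1% of sites (76 of 205, interval 30.4 to 44.1%) and 20.9% of LACZ 1 peaks (interval 18.5 to 23.5%). The sites farther from genes were narrow, with a median of 61.5 bp, and had a median ODD 2 fold of 5.02. Those in protein-coding genes had a median width of 147 bp and a median ODD 2 fold of 8.12, next to 140 bp and 7.50 for sites in protein-coding genes outside the windows. By annotation, 228 summits lay in 212 protein-coding genes, 131 in pseudogenes, a class that can include remnants of transposons, and 26 in RNA genes.

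The 20 sites of best rank, ranked by the worse of their ODD 1 and EVEN ranks, are described as narrow and wide ones, split at a width of 100 bp. All 20 had an ODD 2 peak. The 9 that were at most 100 bp wide had ODD 2 folds of 3.66 to 9.01, and 8 of them lay within 1 Mb of a centre. The 11 wider ones had ODD 2 folds of 9.57 to 15.1, and 2 of them lay within 1 Mb. The ODD 2 folds of these narrow and wide sites did not overlap. Their ODD 1 folds did, at 9.55 to 21.5 and 9.68 to 17.9. The separation in ODD 2 belonged to these 20 sites. Over all pericentromeric sites with an ODD 2 peak, the ODD 2 folds of narrow and wide ones overlapped. The lower and upper quartiles were 3.82 and 7.64 for widths over 60 and up to 100 bp. They were 5.70 and 9.26 for widths over 100 and up to 200 bp.

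Among the wide ones, the first by rank lay in AT5G25756, a protein-coding gene without a symbol in the table (chr5:8962053-8962570), with 17.9-fold in ODD 1, 10.2-fold in EVEN 1 and 11.4-fold in ODD 2. The second lay in the pseudogene AT5G26283 (chr5:9215745-9216013), with 15.2-fold in ODD 1, 14.8-fold in EVEN 1 and 15.1-fold in ODD 2. It had the highest EVEN fold of all the sites. G3Pp5, a member of the glycerol-3-phosphate permease family, followed (chr2:5390546-5390886, 14.1-fold in ODD 1, 8.72-fold in EVEN 1 and 10.4-fold in ODD 2). A site of 667 bp lay in the RNA gene AT4G02885 (chr4:6664476-6665142, 13.8-fold in ODD 1, 9.01-fold in EVEN 1 and 9.57-fold in ODD 2). NF-YB7, for a subunit of the NF-Y transcription factor, held a site with 12.3-fold in ODD 1, 6.30-fold in EVEN 1 and 14.6-fold in ODD 2 (chr2:5655900-5656091). YAK1, for a protein kinase that acts in growth control, held 1 with 9.68-fold in ODD 1, 6.04-fold in EVEN 1 and 15.0-fold in ODD 2 (chr5:14128254-14128531). The sites in NF-YB7 and YAK1 stood in the first 2.94% and 7.52% of the ODD 1 list by fold, and in the first 0.139% and 0.0911% of the longer ODD 2 list. Other wide ones lay within 1 kb of AT3G42150 (15.6-fold, 8.25-fold and 14.3-fold in ODD 1, EVEN 1 and ODD 2), of AT1G36270, AT1G44990 and AT4G08056, and more than 1 kb from AT3G28830.

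The narrow ones of best rank were mostly close to a centre and away from protein-coding genes. The site with the highest ODD 1 fold of all 637, of 86 bp, lay more than 1 kb from its nearest gene, AT2G07810 (chr2:3597237-3597322, 21.5-fold in ODD 1, 6.83-fold in EVEN 1 and 9.01-fold in ODD 2). Another lay in the pseudogene AT4G06712 (chr4:3992555-3992628), with 15.5-fold in ODD 1, 8.41-fold in EVEN 1 and 6.90-fold in ODD 2. A pair lay close to the centre of chromosome 5, both nearest to the pseudogene AT5G32241, with 12.3-fold and 11.8-fold in ODD 1, 8.93-fold and 9.46-fold in EVEN 1, and 7.82-fold and 6.62-fold in ODD 2 (chr5:11887161-11887227 and chr5:11891242-11891298). The remaining ones lay in the RNA gene AT3G06365 and in AT2G08986, within 1 kb of MIR5643b, and more than 1 kb from AT5G32312 and AT4G06718.

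**Figure D5:**
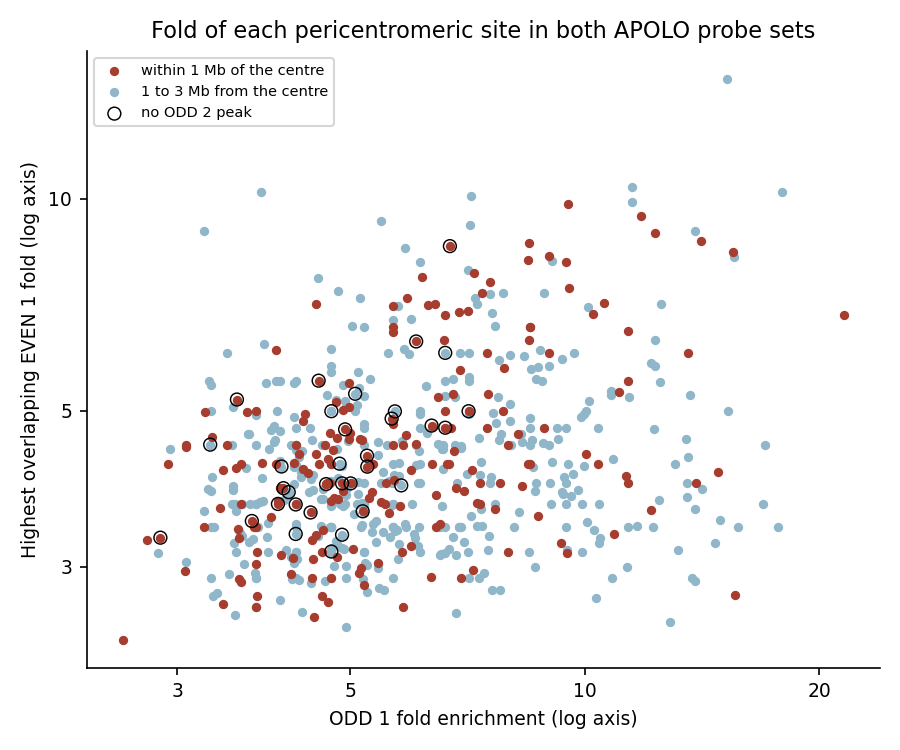
Fold enrichment of each of the 637 pericentromeric sites in ODD 1 (horizontal log axis) and of its highest overlapping EVEN 1 peak (vertical log axis), coloured by distance from the centre, with the 33 sites that had no ODD 2 peak circled. Sites of both distance classes cover most of the range, and the circled ones stay between 2.85-fold and 7.09-fold in ODD 1.

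The widest sites lay in protein-coding genes, pseudogenes and RNA genes, and some lay outside genes. The widest of all, 987 bp, lay in AT4G08410, a protein-coding gene (chr4:5338976-5339962, 9.40-fold in ODD 1, 4.02-fold in EVEN 1 and 5.78-fold in ODD 2), but its highest EVEN peak was only 64 bp wide. On chromosome 3 the widest lay within 1 kb of the pseudogene AT3G29774 and in the pseudogene AT3G30330, at 656 and 627 bp, with 10.9-fold and 12.4-fold in ODD 1 and 7.66-fold and 6.94-fold in ODD 2. On chromosome 1 they lay close together, within 1 kb of the long noncoding RNA gene AT1G06857 and more than 1 kb from AT1G35340, at 569 and 511 bp. On chromosome 2 they lay in the noncoding RNA gene AT2G15292 (508 bp) and in the transcribed pseudogene AT2G16905 (384 bp). The second widest of chromosome 5 lay more than 1 kb from AT5G33270 (363 bp, 11.3-fold in ODD 1, 5.52-fold in EVEN 1 and 12.3-fold in ODD 2).

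Protein-coding genes with a symbol held 78 sites, and 8 of these lay within 1 Mb of a centre. The following were picked for their known roles after their values were seen. SERPIN1, for a protease inhibitor, held a site of 390 bp with 17.7-fold in ODD 1, 3.41-fold in EVEN 1 and 10.6-fold in ODD 2 (chr1:17558807-17559196). ACC1, for the cytosolic acetyl-CoA carboxylase of fatty acid elongation, held 1 with 15.3-fold in ODD 1, 4.99-fold in EVEN 1 and 13.0-fold in ODD 2 (chr1:13533476-13533711). PME31, for a pectin methylesterase, held 1 with 14.7-fold, 3.24-fold and 12.5-fold in ODD 1, EVEN 1 and ODD 2. All 3 were above the median of all sites in ODD 1, 5.62, and in ODD 2, 6.92. In EVEN 1, SERPIN1 and PME31 were below the median of all sites, 4.03, and ACC1 was above it. FLA7, for a fasciclin-like arabinogalactan protein, had the highest ODD 2 fold of all the sites, 16.0, with 9.46-fold in ODD 1 and 3.41-fold in EVEN 1. CRY1, for a blue-light receptor, had 9.93-fold in ODD 1, 3.68-fold in EVEN 1 and 12.2-fold in ODD 2 (chr4:5724205-5724393). GID1C, for a gibberellin receptor, had 9.61-fold in ODD 1, 3.78-fold in EVEN 1 and 9.26-fold in ODD 2. NIA2, for a nitrate reductase, was among those within 1 Mb of a centre, with 8.51-fold in ODD 1, 4.20-fold in EVEN 1 and 10.5-fold in ODD 2. ARP6, for a subunit of the complex that places the histone variant H2A.Z, had a site of only 49 bp, with 4.92-fold in ODD 1, 3.68-fold in EVEN 1 and 6.25-fold in ODD 2.

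Auxin and cytokinin genes held sites no more often, by count, than other genes of the windows. The windows held 29 genes of the auxin and cytokinin families by symbol or synonym, and 2 of them (6.90%) had a site in the gene or within 1 kb, against 342 of the 3180 protein-coding genes there (10.8%). IAA28, for an Aux/IAA repressor that limits lateral root formation, had 2 sites. The first had 8.36-fold in ODD 1, 5.98-fold in EVEN 1 and 11.5-fold in ODD 2 (chr5:9034560-9034668), and the other had 6.15-fold, 4.20-fold and 5.83-fold in the same lists (chr5:9033463-9033577). No LACZ peak lay in IAA28 or within 1 kb. GH3.1, of the family that conjugates hormones to amino acids, had 1 site with 7.61-fold in ODD 1, 2.78-fold in EVEN 1 and 9.89-fold in ODD 2 (chr2:6451488-6451656), and 2 LACZ peaks in the gene or within 1 kb of it. Of the 29 genes, 14 had an ODD 1 peak of any kind in the gene or within 1 kb (48.3%, against 46.6% of all protein-coding genes in the windows), 11 an EVEN peak (37.9%, against 53.6%), 26 an ODD 2 peak (89.7%, against 86.6%) and 9 a LACZ peak (31.0%, against 42.4%). ABCB19, for an auxin efflux transporter, was singled out after its values were seen: it had 4 ODD 1 peaks and 5 EVEN peaks and no LACZ peak within that distance, but none of the ODD 1 peaks overlapped an EVEN peak.

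Part of the sites lay in runs. There were 10 runs of at least 5 sites with no more than 10 kb between neighbours, which held 61 sites. The longest in sites, 12 within 25.1 kb, covered the ribosomal RNA gene AT3G41768 and its surroundings (chr3:14190626-14215688). Its sites were 47 to 88 bp wide, had 4.55-fold to 11.5-fold in ODD 1, 4.45-fold to 9.89-fold in EVEN 1 and 3.53-fold to 6.12-fold in ODD 2, and 10 of the 12 had an ODD 2 peak. Within the run, 2 sites lay in AT3G41768 itself (7.67-fold and 7.60-fold in ODD 1, 6.60-fold and 6.88-fold in EVEN 1, 3.87-fold and 4.07-fold in ODD 2), and 1 lay in MIR5642a. The local background reached 9.69 fragments in that run, against a median of 1.46 over all sites, and 12 of the 25 ODD 1 peaks of the stretch had a LACZ peak. A run of 6 sites within 3.57 kb on chromosome 4 (chr4:3951930-3955497) had a local background of 6.97 to 7.26 fragments. There, 5 of 11 ODD 1 peaks had a LACZ peak. A run of 5 sites on chromosome 5 (chr5:11723394-11734010) had 7.56 to 15.1 fragments, with ODD 2 folds of 2.08 to 2.63, and 16 of its 22 ODD 1 peaks had a LACZ peak. A run of 5 sites on chromosome 2 (chr2:3614933-3628053) had 2.96 to 9.75 fragments, and 19 of its 24 ODD 1 peaks had a LACZ peak.

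A local background over 5 fragments was found at 25 of the 637 sites (3.92%), 18 of them within 1 Mb of a centre, against 1 of 2089 sites outside (0.0479%). The part of the background in these sites was not tested, and 612 sites remained without them. Not all runs were of this kind. A run of 8 sites at the centre of chromosome 5 (chr5:11950909-11975828) had a local background of 1.11 to 1.81 fragments and ODD 2 peaks over all 8. Its sites had 4.37-fold to 11.4-fold in ODD 1, 3.98-fold to 8.29-fold in EVEN 1 and 3.64-fold to 5.06-fold in ODD 2. Of the 12 ODD 1 peaks of that stretch, 3 had a LACZ peak. A run of 5 sites on chromosome 4 (chr4:4908373-4920979) had neither a high background nor any LACZ peak, its sites were 95 to 440 bp wide, and they had 5.83-fold to 13.6-fold in ODD 1, 3.15-fold to 6.04-fold in EVEN 1 and 7.35-fold to 10.2-fold in ODD 2. It was the run with the highest ODD 2 folds.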

How the data were processed

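APOLO ChIRP-seq was analysed from 1 peak list per library (ODD 1, EVEN 1, ODD 2 and LACZ 1) on TAIR10. The submitters' processing notes name MACS2 as well as Bowtie2, Trimmomatic and CASAVA 1.8.2. Settings of these tools, and whether a control entered peak calling, are not stated there. Per the file headers, the authors deposited for each peak its limits, summit, pileup signal, fold enrichment over the local background, and the −log10 p-value and −log10 q-value. The local background was computed by dividing the pileup, raised by 1, by the fold and taking 1 away, since MACS2 adds 1 to both terms.

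Peaks overlapping by at least 1 bp were shared. Where several peaks overlapped a site, the highest fold was taken. The sites, gene lists, bins and comparisons were chosen with earlier results of these data known. Named sites are the 20 best by the worse of 2 ranks, and per chromosome the widest 2, the nearest and the farthest. Also named are those at auxin and cytokinin genes, up to 10 in RNA genes, up to 5 without an ODD 2 peak, and the 500 kb bin with most sites. Of these, the text gives a part in full. Others are marked as picked later.

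Gene names came from a RefSeq table of TAIR10.1, whose gene positions placed the summits in, near or away from genes. None of its coordinates are given. As a check of fit, the share of summits within 200 bp of a protein-coding gene's edge was computed at shifts of up to 3000 bp, and it was lowest at 0 in 8 of 10 chromosome parts, the exceptions being the short gene-poor parts of chromosomes 2 and 4. Sequence was not analysed here. Shares carry exact (Clopper-Pearson) 95% intervals, and 2 comparisons used Fisher's exact test, two-sided, with Benjamini-Hochberg adjustment (Python 3.11.15, scipy 1.17.1). The overlap and test code was tested on simulated data. The alternatives tried were another overlap, q-value, LACZ distance and window, the mitochondrial copy, ODD 2 in place of ODD 1, merging, splits by fold, and later width, distance and background.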

Additional observations from a re-analysis of the deposited data

How the results depend on the processing

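With −log10 q of at least 5 in every list, 263 sites remained, 27.4% of them in protein-coding genes, and 93.5% had an ODD 2 peak, which was then below the 97.0% of unshared pericentromeric peaks. With 2 Mb windows there were 414 sites, with 22.5% in protein-coding genes, a median ODD 2 fold of 6.50 and 93.2% with an ODD 2 peak (adjusted p = 0.0531, Fisher's exact test, against the unshared pericentromeric peaks). With 4 Mb windows 49.1% were in protein-coding genes. Without ODD replicate 1, with ODD 2 peaks in its place, 1552 sites were found, 43.9% in protein-coding genes. The difference from sites outside the windows no longer passed the test for sites above the median ODD 1 fold (97.2% with an ODD 2 peak), or for sites at least 1 Mb from a centre (97.0%, chosen after seeing the data), and that from unshared peaks did not for sites below that median (92.5%) or with the mitochondrial copy kept in (94.3%). Peaks of at least 100 bp, also chosen after seeing the data, gave 100%, where nearly all peaks of each group had one (against sites outside, at 99.9%, the difference changed its direction with an adjusted p of 1 in Fisher's exact test, and against unshared peaks, at 99.0%, it was 0.144), 43.8% in protein-coding genes and a median ODD 2 fold of 8.16. In these settings the causes were not tested. The other settings kept the direction and the side of the threshold. No paired analysis was possible because EVEN and LACZ had 1 library each. Leaving out ODD 2 leaves no value for recovery. How depth bears on the narrow sites was not tested.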
